A study of Mus musculus with 12 samples.

Results

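Mouse conventional CD4+ T cells transduced with the M354 form of Foxp3 were compared with the same kind of cells transduced with wild-type (WT) Foxp3, on 2 arrays each out of the 12 arrays of the study. The arrays were chosen by their labels and not by any measured value. The cells came from spleens of WT male C57Bl/6 mice aged 6 weeks, received a retrovirus encoding Foxp3, and were double sorted as DAPI-negative CD4+ cells with high Thy1.1 (labelled CD4+TCRb+THY1.1+). All of them therefore share a WT host genotype and a retroviral Foxp3, and the groups differ in the form of Foxp3 that was delivered. RNA was measured on Affymetrix ST1.0 arrays, which read each transcript with a set of short probes. Beside this comparison stand 2 arrays of cells transduced with the M176 form, and 6 arrays of regulatory T cells (Tregs) sorted as CD4+ CD25-high from spleens of male C57Bl/6 mice of the same age with the genotype Foxp3(M354/M354), Foxp3(M176/M176) or Foxp3(WT/WT), 2 per genotype. The study as a whole scanned Foxp3 by mutagenesis. Which amino acids the names M354 and M176 stand for is not given in the sources used here. The labels do not name the cultures or animals behind each array. The p-values therefore rest on the spread between 2 arrays per group, which may be technical only. Cells transduced without Foxp3 were not analysed here.

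Foxp3 is the forkhead transcription factor that defines Tregs. Delivered to conventional T cells it raises many genes of the Treg signature, such as those for the high-affinity IL-2 receptor and several receptors of the TNF receptor superfamily, and represses others, such as Il2. Hypoxia-inducible factor 1 (HIF-1) is stabilised when prolyl hydroxylases lack oxygen. It raises genes of glucose uptake, glycolysis, mitophagy and angiogenesis in activated T cells. Foxp3 has been described to interact with HIF-1, and different substitutions in Foxp3 alter different sets of its targets. An interaction of Foxp3 with HIF-1 was not tested here.

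Foxp3 transcript was abundant in all transduced cells. The Foxp3 probe set read 5339.6 and 5821 in M354-transduced cells, 5945 and 6163 in WT-transduced cells and 5663 and 5233 in M176-transduced cells. Both M354 arrays lay below both WT arrays, by a difference that limma did not call (log2 -0.12, SE 0.13, adjusted p = 0.838). The sources used here do not say how far the probe set reads transcript from the retrovirus and from the cell's own gene. Its reading does not check which form was delivered.

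The cells carried the markers of CD4+ T cells. All 6 CD4+ T cell markers on the array, such as Cd4, Cd3e and Thy1, lay above the array median on all 6 arrays of transduced cells, and their summed intensity was 28957 to 30516 with M354 and 30180.1 to 30263 with WT Foxp3. None of the 13 myeloid and dendritic cell markers on the array was above the median on all 6 arrays. Of the 9 B cell markers 4 lay above the median on all 6 arrays, and so did 4 of the 8 CD8+ T cell and NK cell markers. The B cell markers summed to 1824 to 1936 with M354 and 1880 to 2017 with WT. The CD8+ T cell and NK cell markers summed to 2187 to 2213 with M354 and 1717 to 1785 with WT. Median array intensity over the 12 arrays lay between 101.5 and 117, and the number of arrays limits the precision.

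The arrays of a group also differed from each other along a common axis. The mean log2 intensity of 36 small nucleolar RNAs was 9.64 and 8.75 on M354 replicates 1 and 2 and 8.61 and 9.18 on WT replicates 1 and 2. M354 replicate 2 correlated with WT replicate 1 over the genes tested at 0.989 and with its own partner at 0.987. The part of this axis in the results below was not tested beyond fits that left out 1 array or took the small nucleolar RNA level as a covariate.

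Of 8918 genes tested, 119 (1.33%) were called in M354- against WT-transduced cells, at p under 0.05 after Benjamini-Hochberg adjustment. Of these, 32 were higher with M354 Foxp3 (0.359% of the genes tested) and 87 were lower (0.976%). In all 119 the M354 and WT arrays did not overlap, an arrangement that 20.2% of all tested genes showed with M354 above WT and 17.1% with M354 below. Changes of 2-fold or more were called for 24 falls and 2 rises, and the median log2 change over all tested genes was 0.01. In this text a gene is said to have risen or fallen only where it was called, and changes are given as M354 minus WT in log2 units unless a linear fold is named. Array values are linear intensities, replicate 1 first. Adjusted p are limma's. Genes outside the naming rule given with the processing are marked as chosen after their values were seen.

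The falls were far more stable than the rises when single arrays were left out. Of the 87 falls, 29 were called in each of the 4 fits that left out 1 M354 or WT array, against 2 of the 32 rises. The number of rises was 5 without M354 replicate 1, 35 without M354 replicate 2, 80 without WT replicate 1 and 2 without WT replicate 2. The number of falls was 37, 57, 60 and 63 in the same order.

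**Figure D1:**
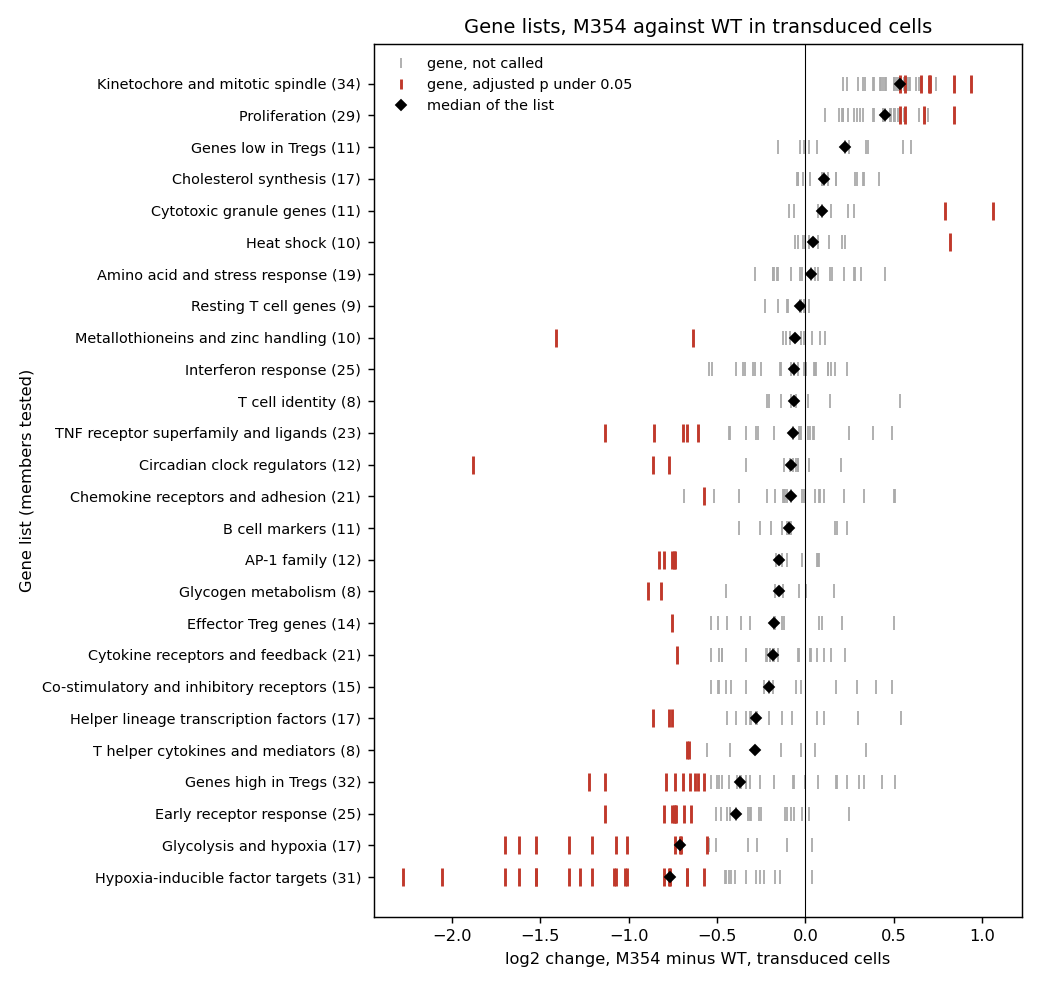
Gene lists in M354- against WT-transduced T cells. Each tick is the log2 change of 1 gene (x axis, M354 minus WT), in red where limma's adjusted p was under 0.05, and each diamond is the median of the list named on the y axis, with the number of tested members in parentheses. HIF targets and glycolysis genes lie furthest to the left, with medians of -0.77 and -0.71, and mitotic genes furthest to the right, with a median of 0.53.

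Targets of hypoxia-inducible factors were 9 of the 15 largest falls. Of 31 tested genes on a list of HIF targets that was assembled after the values had been seen, 19 fell and 0 rose. Among all tested genes 0.976% fell. The list's median was -0.77 and 30 of its 31 members were below 0, beside a median of 0.01 over all genes. The related list of glycolysis and hypoxia genes, which shares members with it, had 11 falls and 0 rises among 17 tested genes and a median of -0.71. Of the 19 falls, Mgarp and Plod2 lay above the array median only on the WT arrays and so entered the test through the group where they are high, and 17 of the other 29 members fell. Leaving out 1 array left 14 to 16 falls among the HIF targets and 8 to 10 on the glycolysis list. In bulk samples, fewer cells expressing a gene and less RNA per cell cannot be told apart.

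Ak4, which encodes an adenylate kinase of the mitochondrial matrix, showed the largest fall of all called genes. It read 133 and 143 on the M354 arrays and 658 and 675 on the WT arrays, a 4.84-fold difference (log2 -2.28, SE 0.13, adjusted p = 2.35e-08). The M354 and WT arrays did not overlap, and the spread within each group was small beside the gap. A second, dimmer probe set of Ak4 differed by -0.71. Ndrg1, a stress- and hypoxia-responsive gene, read 419 and 467 with M354 and 1772 and 1917 with WT Foxp3, 4.17-fold lower with M354 (log2 -2.06, SE 0.13, adjusted p = 5.47e-08). Mgarp, which encodes a mitochondrial protein, read 59.1 and 52.0 against 163 and 156 (log2 -1.52, SE 0.12, adjusted p = 2.31e-06). For both genes, as for Ak4, each M354 array lay below each WT array. Mgarp lay below the array median on all arrays but the WT-transduced ones, so the size of its fall rests on dim readings.

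Egln3, Vegfa and Ero1a fell as well. Egln3 encodes a prolyl hydroxylase that marks HIF proteins for degradation and is itself a HIF target. It read 665 and 867 with M354 and 2564 and 2117 with WT Foxp3, 3.07-fold lower (log2 -1.62, SE 0.17, adjusted p = 5.47e-05), with no overlap between the groups. Vegfa, the angiogenic growth factor, read 175.7 and 189 against 536 and 514 (log2 -1.53, SE 0.17, adjusted p = 7.77e-05). Ero1a, an oxidase of disulfide bond formation in the endoplasmic reticulum, read 1320.3 and 1477 against 3553 and 3496 (log2 -1.34, SE 0.14, adjusted p = 5.47e-05). Each of these genes was more than 2-fold lower on the M354 arrays, and the groups did not overlap. Hif1a itself, which encodes the oxygen-regulated subunit of HIF-1 and is controlled mainly at the protein level, read 4669 and 5031 against 6236 and 5525 and was not called (log2 -0.28, adjusted p = 0.48). It was added after its values were seen.

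The mitophagy receptor gene Bnip3 and the lipid droplet gene Hilpda fell as well. Bnip3 read 619.5 and 601 with M354 and 2067 and 1894 with WT Foxp3, 3.24-fold lower (log2 -1.70, SE 0.19, adjusted p = 7.3e-05). Its second probe set also gave a lower mean with M354, by -1.41. Hilpda, whose product restrains lipolysis at lipid droplets, read 138 and 112 against 281 and 321 (log2 -1.27, SE 0.16, adjusted p = 0.000243). The M354 arrays lay below the WT arrays for both genes. Plod2, a lysyl hydroxylase of collagen, read 89.3 and 76.7 against 175 and 175.7 (log2 -1.08, SE 0.15, adjusted p = 0.000685), and the calls of these 3 genes held in all 4 fits that left out an array. Plod2, like Mgarp, lay above the array median only on the WT-transduced arrays.

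The other HIF targets that fell were named after their values had been seen, beside the transporters and enzymes described further on. Stc1, a secreted glycoprotein, read 70.1 and 96.7 with M354 and 172 and 162 with WT Foxp3 (log2 -1.02, SE 0.15, adjusted p = 0.00129). Mxi1, an antagonist of Myc, read 265 and 286 against 493 and 445 (log2 -0.77, SE 0.13, adjusted p = 0.00363). Egln1, which encodes the main prolyl hydroxylase of HIF-1, read 555 and 640.2 against 1035 and 866 (log2 -0.67, SE 0.15, adjusted p = 0.0316). All M354 arrays lay below the WT arrays for these genes, and Stc1 lay below the array median on both M354 arrays. Fam162a changed by -0.67 (adjusted p = 0.0152) and Ankrd37 by -0.57 (0.0391). Of these 5, Stc1 kept its call in all 4 fits that left out an array, Mxi1 lost it without M354 replicate 1 (adjusted p 0.0746), and Egln1, Fam162a and Ankrd37 lost it without 3 or 4 of the arrays in turn (up to 0.366, 0.144 and 0.285). The 12 tested members without a call included the histone demethylase Kdm3a (-0.42) and the mitophagy receptor Bnip3l (-0.40), both below 0, and Car9 and Adm lay below the filter on dim genes.

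**Figure D2:**
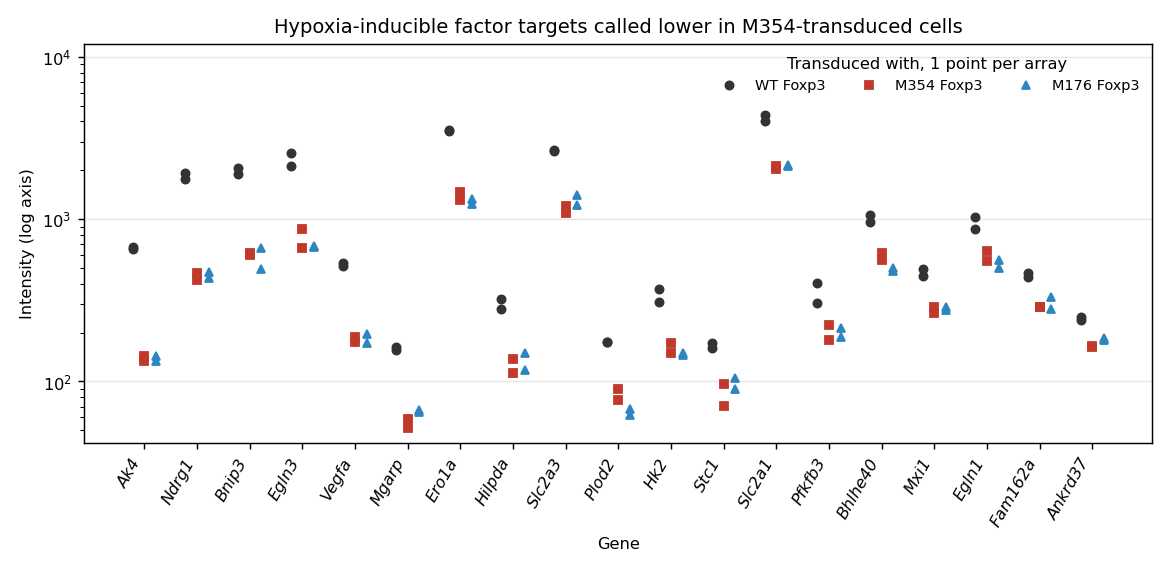
Intensity (y axis, log scale) of the 19 HIF targets called lower in M354- against WT-transduced cells, 1 point per array. Both WT arrays (circles) lie above both M354 arrays (squares) for every gene, and the M176 arrays (triangles), which were not part of the call, lie below both WT arrays for every gene as well: Ak4 reads 133 and 143 on them.

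HIF proteins bind a core of 5 bases, ACGTG or GCGTG, and promoters of several of these genes were read for the ACGTG form. Sequences of 250 bases upstream of the most upstream listed start were taken from RefSeq (GRCm38.p6), and 14 of the 19 HIF targets that fell had an entry. The promoters shown are from 4 genes that fell and hold ACGTG on either strand, in capitals as ACGTG or its reverse complement CACGT, and from Ak4, which had the largest fall and has no ACGTG in this window. GCGTG is not marked. In Bnip3 the capitals mark CACGTG, 1 palindrome that matches on both strands.
Egln3 (chr12:54203875-54204124, minus strand): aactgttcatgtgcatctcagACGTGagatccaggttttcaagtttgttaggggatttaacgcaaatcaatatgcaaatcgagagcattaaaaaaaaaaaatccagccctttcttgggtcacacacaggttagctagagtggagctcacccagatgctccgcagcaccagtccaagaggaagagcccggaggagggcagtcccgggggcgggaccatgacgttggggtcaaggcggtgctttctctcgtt
Bnip3 (chr7:138909507-138909756, minus strand): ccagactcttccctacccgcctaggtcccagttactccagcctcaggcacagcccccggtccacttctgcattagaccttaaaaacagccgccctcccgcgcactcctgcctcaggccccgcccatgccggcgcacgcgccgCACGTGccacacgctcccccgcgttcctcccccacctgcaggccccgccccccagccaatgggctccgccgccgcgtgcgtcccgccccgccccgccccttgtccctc
Ero1a (chr14:45318573-45318822, minus strand): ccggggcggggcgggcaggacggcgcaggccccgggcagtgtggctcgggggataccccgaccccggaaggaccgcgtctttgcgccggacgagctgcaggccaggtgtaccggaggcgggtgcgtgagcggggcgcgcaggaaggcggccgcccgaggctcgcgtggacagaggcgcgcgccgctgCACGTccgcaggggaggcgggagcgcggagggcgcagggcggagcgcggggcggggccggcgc
Slc2a1 (chr4:119108495-119108744, plus strand): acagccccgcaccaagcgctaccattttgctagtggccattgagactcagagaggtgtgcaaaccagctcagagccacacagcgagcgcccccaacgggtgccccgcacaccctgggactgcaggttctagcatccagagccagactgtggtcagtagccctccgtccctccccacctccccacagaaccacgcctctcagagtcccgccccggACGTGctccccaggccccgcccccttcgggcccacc
Ak4 (chr4:101419039-101419288, plus strand): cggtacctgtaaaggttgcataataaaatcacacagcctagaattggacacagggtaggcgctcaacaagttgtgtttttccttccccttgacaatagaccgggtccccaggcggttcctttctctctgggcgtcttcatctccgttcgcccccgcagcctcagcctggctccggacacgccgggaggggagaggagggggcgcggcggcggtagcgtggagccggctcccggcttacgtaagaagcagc

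ACGTG stood in 10 of those 14 promoters (71.4%), in 3 of 9 promoters of HIF targets that were not called (33.3%) and so in 13 of 23 of all tested HIF targets (56.5%). It stood in 1560 of the 7110 tested genes with a promoter entry (21.9%), in 10 of 54 promoters of the other genes that fell (18.5%) and in 3 of 22 promoters of genes that rose (13.6%). Among all 27025 promoters of the table, 16.5% held it. The form GCGTG, in either orientation, which can share bases with ACGTG on the other strand, stood in 7 of the 14 HIF targets that fell, in 14 of all 23 (60.9%) and in 46.2% of tested genes. Many of the listed HIF targets are known as such because of sites of this kind, so the share among them is a description and not independent of how the list was drawn. The forkhead motif TGTTTAC, in either orientation, was in 2 of the 68 promoters of genes that fell (2.94%) beside 2.07% of tested genes, and the AP-1 motif TGACTCA in 4 of 68 (5.88%) beside 2.77%. A match is only a match of letters in this window.

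On the glycolysis and hypoxia list, 11 of 17 genes fell, among them glucose transporters and glycolytic enzymes. Slc2a1, which encodes the transporter GLUT1 of activated T cells, read 2048 and 2138 with M354 and 4048 and 4375 with WT Foxp3, 2.01-fold lower (log2 -1.01, SE 0.12, adjusted p = 0.000202). Slc2a3, which encodes GLUT3, read 1093 and 1213 against 2678 and 2636 (log2 -1.21, SE 0.13, adjusted p = 5.11e-05). Neither gene's groups overlapped. Hk2, the hexokinase that phosphorylates glucose on entry, read 149.6 and 173 against 372 and 308 (log2 -1.07, SE 0.15, adjusted p = 0.00073), again without overlap. These 3 genes kept their calls in every fit that left out 1 of the 4 arrays.

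Along the pathway below hexokinase the falls were smaller. Pfkp, a phosphofructokinase, fell, changing by -0.74 (adjusted p = 0.0086), Tpi1, triosephosphate isomerase, by -0.70 (0.00872), Pgam1, phosphoglycerate mutase, by -0.71 (0.0105) and Aldoa, aldolase A, by -0.55 (0.0357). Pfkfb3, whose product makes an activator of phosphofructokinase, changed by -0.80 (0.0347). Each of these 5 calls was lost without at least 1 array, with adjusted p up to 0.177 for Pfkp, 0.0877 for Tpi1, 0.146 for Pgam1, 0.231 for Aldoa and 0.414 for Pfkfb3. Pgk1 (log2 -0.55, adjusted p = 0.167), Pkm (log2 -0.51, adjusted p = 0.143) and Ldha (log2 -0.33, adjusted p = 0.346), which encode later enzymes including lactate dehydrogenase, were not called. Pdk1, a kinase that keeps pyruvate out of the mitochondrion, was the 1 tested HIF target that was not below 0 (log2 0.03, adjusted p = 0.966). Slc2a1, Hk2 and the genes of this paragraph were named after their values had been seen.

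Lists of glycogen, metallothionein and clock genes were assembled after the values had been seen, and so were Pgm1, Gbe1 and Mt1 chosen. Their falls stand beside 0.976% of all tested genes that fell. Of 8 tested genes of glycogen metabolism 2 fell: Pgm1, phosphoglucomutase, which read 383 and 407 against 759.9 and 706 (log2 -0.89, SE 0.13, adjusted p = 0.00134), and Gbe1, the branching enzyme (log2 -0.81, adjusted p = 0.00735). Pgm1 showed no overlap, and Gbe1 lost its call without M354 replicate 1 or WT replicate 1 (adjusted p up to 0.118). Of 10 tested metallothionein and zinc genes 2 fell, both metallothioneins, which bind zinc and copper. Mt2 read 1087 and 806 against 2456 and 2514 (log2 -1.41, SE 0.27, adjusted p = 0.0128) and lost its call without M354 replicate 2 or WT replicate 2 (adjusted p up to 0.0903). Mt1 changed by -0.64 (adjusted p = 0.0141), a call lost without any 1 of the 4 arrays (up to 0.131).

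Of 12 tested circadian clock regulators 3 fell, beside 0.976% of all tested genes. Ciart, a repressor of the clock activators, read 70.5 and 68.9 with M354 and 301 and 219 with WT Foxp3, 3.68-fold lower (log2 -1.88, SE 0.17, adjusted p = 1.26e-05). The groups did not overlap, although the WT arrays differed from each other by more than the M354 arrays did. Ciart lay above the array median only on the 2 WT-transduced arrays and 1 array of M176 Tregs. The size of its fall therefore rests on dim readings. Nfil3, a repressor of the bZIP family that also shapes helper T cell programmes, read 382 and 373 against 658 and 719 (log2 -0.86, SE 0.14, adjusted p = 0.0028). Bhlhe40, a repressor that is both a HIF target and a regulator of T cell cytokines, read 622 and 563 against 964 and 1061 (log2 -0.77, SE 0.14, adjusted p = 0.00934), and its call was lost without M354 replicate 2 or WT replicate 2 (adjusted p up to 0.0842).

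On the arrays of M176-transduced cells the HIF targets read close to their M354 values. Ak4 read 133 and 143 with M176, Ndrg1 475 and 434, Vegfa 197 and 173 and Egln3 676 and 682. These intensities lie within the range of the M354 arrays or close beside it, and below all WT arrays. Tested directly, M354 minus M176, Ak4 differed by -0.01 (adjusted p = 0.998) and Ndrg1 by -0.04 (0.993), and limma called 0 of the 31 tested HIF targets, with a median difference of -0.03 and 1 member at an unadjusted p under 0.05. A p that misses the threshold does not show that both forms act alike. The mean log2 intensity over the HIF targets was 8.38 and 8.46 on the M354 arrays, 8.42 and 8.44 on the M176 arrays and 9.30 and 9.24 on the WT arrays. Against WT, 16 of the 31 fell with M176 Foxp3 and the median was -0.78, where 0.505% of all genes fell, 0.0112% rose and 0.516% were called in either direction. Both mutants were set against the same WT arrays, so their changes against WT share any deviation of those arrays.

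Part of the genes that mark Tregs fell. Of 32 tested genes that are high in Tregs, 9 fell and 0 rose, beside 0.976% of all tested genes that fell. The list's median change was -0.37, 24 of its members were below 0, and its summed intensity was 44989 to 46354 with M354, 60474 to 60645 with WT and 51060.2 to 51334 with M176 Foxp3. Leaving out an array left 2 falls without M354 replicate 1, 3 without M354 replicate 2, 7 without WT replicate 1 and 3 without WT replicate 2.

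Gpr83, a G protein-coupled receptor abundant in Tregs, showed the largest fall on this list. It read 184 and 263 with M354 and 517 and 510.1 with WT Foxp3, 2.33-fold lower (log2 -1.22, SE 0.15, adjusted p = 0.000243). Its M176 arrays read 399 and 390.5, between the other groups and overlapping neither. Tnfrsf9, which encodes the costimulatory receptor 4-1BB, read 1084 and 1003 with M354 and 2169 and 2424 with WT (log2 -1.14, SE 0.15, adjusted p = 0.000395), and 1067 and 1267 with M176, close to M354. Both genes kept their calls in all 4 fits that left out an array.

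The other 7 falls on the list were smaller. Lrrc32, which encodes GARP, the anchor of latent TGF-beta on Tregs, read 2186 and 2351 against 3515 and 4371 (log2 -0.79, SE 0.17, adjusted p = 0.0229). Ecm1 read 1698 and 2045 against 3002 and 3209 (log2 -0.74, SE 0.14, adjusted p = 0.0135), and Tnfrsf4, which encodes OX40, read 1763 and 1606 against 2579.8 and 2876 (log2 -0.69, SE 0.14, adjusted p = 0.0141). For each of these the M354 arrays lay below the WT arrays. Izumo1r, a folate receptor family member, changed by -0.65, Nt5e, the ecto-enzyme CD73 that makes adenosine, by -0.62, Tnfrsf18, which encodes GITR, by -0.61, and Ccr4, a chemokine receptor, by -0.58. Each of the 7 calls was lost without at least 1 array, with adjusted p up to 0.242 for Lrrc32, 0.248 for Ecm1, 0.137 for Tnfrsf4 and 0.246 for Ccr4. Lrrc32, Izumo1r and Nt5e were named after their values had been seen.

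Core genes of the signature were lower by amounts that did not pass. Il2ra, which encodes the IL-2 receptor alpha chain CD25, read 6863 and 7686 with M354 and 10312 and 9813 with WT (log2 -0.47, adjusted p = 0.0821), and Il2rb, the beta chain, read 3683 and 4192 against 5597 and 5455 (log2 -0.49, adjusted p = 0.0696). The inhibitory receptor Tigit read 1287 and 1423 against 2038 and 1884 (log2 -0.53, adjusted p = 0.0727). Their arrays did not overlap between the groups. At the other end, Ccr8, a chemokine receptor of Tregs, read 254 and 326 against 223 and 184 and was not called (log2 0.51, adjusted p = 0.134).

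Of 11 tested genes that are low in Tregs, limma called 0, with a median of 0.23 and 3 members at an unadjusted p under 0.05. Pde3b, a phosphodiesterase that Foxp3 represses, read 1965 and 2092 with M354 and 1452 and 1319 with WT (log2 0.55, adjusted p = 0.0523), and Dapl1 read 1924 and 1679 against 1299.9 and 1087 (log2 0.60, adjusted p = 0.0692). Both lay above WT without overlap and missed the threshold. Il2, the T cell growth factor that Foxp3 represses, read 121 and 125 against 112 and 84.1 (log2 0.34, adjusted p = 0.539), near the median intensity of the arrays.

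**Figure D3:**
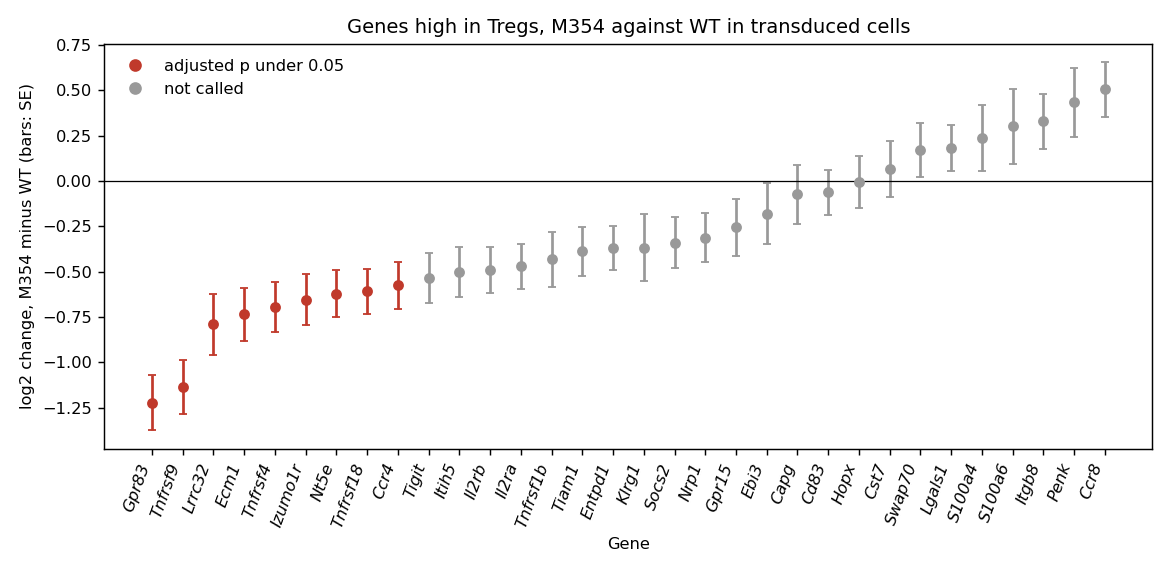
Log2 change (y axis, M354 minus WT in transduced cells, bars SE) of the 32 tested genes that are high in Tregs, ordered by change. The 9 genes in red were called; Gpr83 and Tnfrsf9 lie lowest at -1.22 and -1.14, and 8 genes lie above 0, of which none was called.

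Receptors of the TNF receptor superfamily were among these falls. Of 23 tested members and ligands 5 fell and 0 rose, with a median of -0.07, beside 0.976% of all tested genes that fell. Beside Tnfrsf9, Tnfrsf4 and Tnfrsf18, the fallen genes were Tnfrsf8, which encodes CD30, and Lta, lymphotoxin alpha. Tnfrsf8 read 189.9 and 197 with M354 and 351 and 352 with WT Foxp3 (log2 -0.86, SE 0.12, adjusted p = 0.00109), without overlap, and held its call in all 4 fits that left out an array. Lta changed by -0.67 (adjusted p = 0.0222), a call lost without M354 replicate 1, M354 replicate 2 or WT replicate 2 (up to 0.222). Members without a call included Tnfrsf14 (-0.07) and Tnfrsf25 (0.02), named after their values were seen. Leaving out an array left 2 falls without M354 replicate 1, M354 replicate 2 or WT replicate 2 and 5 without WT replicate 1.

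Part of the genes that respond early to the T cell receptor fell. Of 25 tested genes, 8 fell and 0 rose, beside 0.976% of all tested genes that fell. On this list 23 were below 0, and the median was -0.40. Jun, a component of the AP-1 transcription factor, read 763 and 904 with M354 and 1419.9 and 1380.5 with WT Foxp3 (log2 -0.75, SE 0.13, adjusted p = 0.00735). Its partner Fos read 70.5 and 82.9 against 138 and 119 (log2 -0.74, SE 0.13, adjusted p = 0.00735), below the array median on both M354 arrays. Fosl2, a further partner, read 414 and 415 against 749.6 and 692 (log2 -0.80, SE 0.15, adjusted p = 0.0086). The groups did not overlap for any of the 3 genes, and all 3 calls were lost without M354 replicate 1, that of Fos also without WT replicate 1 (adjusted p up to 0.15, 0.15 and 0.0799).

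The remaining falls of this list were Junb (-0.74), the stress-response gene Ier3 (-0.73), the nuclear inhibitor of NF-kappaB family member Nfkbiz (-0.69), the MAP kinase phosphatase Dusp4 (-0.65) and Tnfrsf9. The 4 genes before Tnfrsf9 were named after their values were seen. On a list of AP-1 family genes assembled after the values had been seen, 5 of 12 tested members fell, the fifth being Maff (log2 -0.83, adjusted p = 0.00735), which lay above the array median only on the WT-transduced arrays. Among immediate early genes without a call, chosen after their values were seen, Myc differed by -0.08, Egr3 by -0.07 and Nr4a1 by -0.27. Leaving out an array left 3 falls of 25 on the early response list without M354 replicate 1, 5 without M354 replicate 2, 4 without WT replicate 1 and 5 without WT replicate 2. The M176 arrays read 1075 and 1010.0 for Jun and 107 and 95.6 for Fos, between both other groups.

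Transcription factors and cytokines of helper and effector programmes changed in few cases. Of 17 tested helper lineage factors 3 fell, namely Nfil3, Bhlhe40 and Maf, beside 0.976% of all tested genes. Maf, which drives Il10 and Il21 in several helper subsets, read 906 and 1009.7 with M354 and 1663 and 1561 with WT (log2 -0.75, SE 0.12, adjusted p = 0.00364), and its call was lost without M354 replicate 1 (adjusted p 0.0799). Of 8 tested cytokine genes 2 fell, Lta and the macrophage growth factor Csf1 (log2 -0.66, adjusted p = 0.0141), while Tnf was lower by an amount that was not called (log2 -0.43, adjusted p = 0.188). Il10ra, the receptor for IL-10, was the 1 fall among 21 cytokine receptor and feedback genes (log2 -0.73, adjusted p = 0.0188). The call of Csf1 was lost without M354 replicate 1 or WT replicate 2 and that of Il10ra without M354 replicate 1 or WT replicate 1 (adjusted p up to 0.273 and 0.295).

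Falls outside these lists, all among the 15 largest or called in each fit that left out an array, covered a mixed set of genes. Atp6v0d2, a subunit of the vacuolar proton pump, read 157 and 207 with M354 and 433 and 373 with WT Foxp3 (log2 -1.15, SE 0.15, adjusted p = 0.000319). Ppp2r3a, a regulatory subunit of protein phosphatase 2A, read 131 and 159 against 379 and 317 (log2 -1.26, SE 0.14, adjusted p = 7.3e-05), and Rgs11, a regulator of G protein signalling, 120.4 and 129 against 279 and 309.6 (log2 -1.24, SE 0.16, adjusted p = 0.000446). In each case both M354 arrays were lower. The transglutaminase Tgm2 (log2 -1.12, adjusted p = 0.000243), the matrix metalloproteinase Mmp9 (log2 -0.88, adjusted p = 0.00109), the beta-arrestin Arrb1 (log2 -0.87, adjusted p = 0.00109) and the sarcomere gene Neb (log2 -1.12, adjusted p = 0.00112) were named after their values were seen.

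Of the following 7 lists limma called 0 genes in either direction. Amino acid and stress response genes had a median of 0.03, with 2 of 19 at an unadjusted p under 0.05, and cholesterol synthesis genes 0.10, with 1 of 17. For interferon response genes these values were -0.06 and 5 of 25, and for costimulatory and inhibitory receptors -0.21 and 8 of 15. Resting T cell genes had a median of -0.03, with 0 of 9 at that p, T cell identity genes -0.07, with 1 of 8, and B cell markers -0.10, with 0 of 11. Over all genes 1015 of 8918 had an unadjusted p under 0.05. The 1 tested myeloid marker and the 1 tested erythroid marker were not called. Of the lists that follow, each had 1 call. Of 10 heat shock genes only Hspe1 rose (median 0.05). Of 21 chemokine receptor and adhesion genes only Ccr4 fell (median -0.08), and of 14 effector Treg genes only Maf (-0.18). In the list of inhibitory receptors, Lag3 read 230.0 and 280.5 against 350.4 and 367 and was not called (log2 -0.50, adjusted p = 0.101). Members below the filter on dim genes were not tested.

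Genes of mitosis were the largest group among the rises that was described by a list. Of 34 tested kinetochore and spindle genes, on a list assembled after the values had been seen, 7 rose and 0 fell, beside 0.359% of all tested genes that rose. All 34 were above 0 and the median was 0.53. Of 29 genes on the proliferation list, which shares members with it, 4 rose and 0 fell, all were above 0 and the median was 0.45. The number of mitotic genes that rose was 0 without M354 replicate 1, 3 without M354 replicate 2, 11 without WT replicate 1 and 0 without WT replicate 2, and that of proliferation genes was 0, 0, 3 and 0. The small nucleolar RNA level, which differed between the arrays of a group, was highest on M354 replicate 1 among these 4 arrays. The median log2 intensity of the proliferation genes was 9.65 and 9.77 on M354 replicates 1 and 2 and 9.37 and 9.35 on WT replicates 1 and 2. M354 lay above WT without overlap for 33 of the 34 mitotic and 24 of the 29 proliferation genes, beside 20.2% of all tested genes. Against M176 the median changes of the mitotic and proliferation lists were 0.61 and 0.50. The means compared there include no WT array but the same M354 arrays, so both comparisons share any deviation of the M354 arrays. By limma 1 of 34 mitotic and 0 of 29 proliferation genes were called there, and 33 and 27 had an unadjusted p under 0.05, beside 462 of all 8918 genes.

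Spc25, a subunit of the NDC80 kinetochore complex, showed the largest mitotic rise. It read 328 and 305 with M354 and 166 and 165 with WT Foxp3, 1.91-fold higher (log2 0.93, SE 0.18, adjusted p = 0.013), and the call was lost without M354 replicate 1 or WT replicate 2 (adjusted p up to 0.141). Cdkn3, a phosphatase of cyclin-dependent kinases, read 400.0 and 385 against 244 and 197 (log2 0.84, SE 0.15, adjusted p = 0.00599), and was lost without the same arrays (up to 0.0818). Both M354 arrays were above both WT arrays in each case. The M176 arrays read 133 and 192 for Spc25 and 242 and 259 for Cdkn3, nearer to WT.

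Stmn1, which destabilises microtubules, read 2265 and 2203 against 1409 and 1108 (log2 0.84, SE 0.18, adjusted p = 0.0274), and Cks2, a subunit of cyclin-dependent kinases, 1424 and 1252 against 949 and 740.1 (log2 0.67, SE 0.15, adjusted p = 0.0322). The mitotic kinase Aurka changed by 0.54 (adjusted p = 0.0391), and Cdc20, an activator of the anaphase-promoting complex, by 0.56 (0.0322). All 4 calls were lost without M354 replicate 1, M354 replicate 2 or WT replicate 2, and that of Cdc20 also without WT replicate 1 (adjusted p up to 0.269, 0.36, 0.319 and 0.255). The kinesins Kif22 (0.65) and Kif18a (0.70) and the spindle gene Tacc3 (0.70) also rose and were named after their values were seen. The call of Kif18a was lost after quantile or cyclic loess normalization. With the small nucleolar RNA level as a covariate the calls of Stmn1, Cks2 and Kif18a were lost. Those of Aurka, Cdc20, Kif22 and Tacc3 were kept with it. Mki67, the usual proliferation marker, differed by 0.19 and was not called (adjusted p = 0.847), a gene added after its values were seen.

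**Figure D4:**
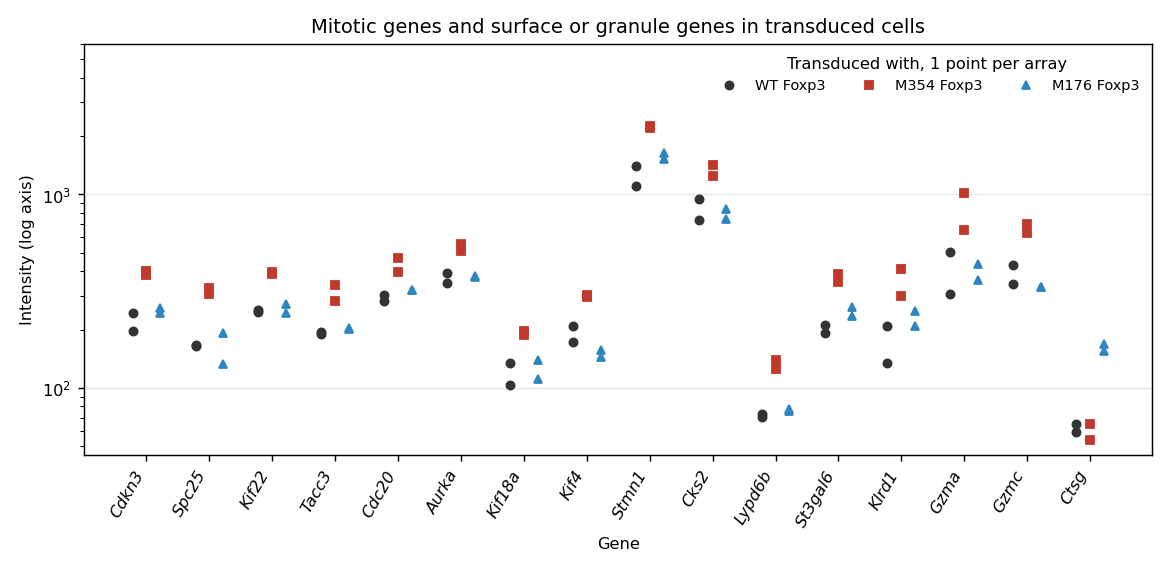
Intensity (y axis, log scale) of mitotic genes and of surface and granule genes in transduced cells, 1 point per array. The M354 arrays (squares) lie above the WT arrays (circles) for every gene shown except Ctsg, and the M176 arrays (triangles) lie below the M354 arrays for every gene but Ctsg, where they lie highest, at 155 and 167. The genes shown were chosen after their values were seen, and Kif4 and Ctsg were not called against WT.

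Granzyme genes and Klrd1 also rose. Gzma, which encodes granzyme A, read 657 and 1018 with M354 and 506 and 304 with WT Foxp3, 2.09-fold higher (log2 1.06, SE 0.21, adjusted p = 0.0141). Gzmc, granzyme C, read 699 and 631 against 430.5 and 343 (log2 0.79, SE 0.16, adjusted p = 0.019), and Klrd1, which encodes the NK cell receptor chain CD94, 409.9 and 298 against 209 and 134 (log2 1.06, SE 0.19, adjusted p = 0.00735). The groups did not overlap. Each call was lost without WT replicate 2, that of Gzma also without M354 replicate 2, that of Klrd1 without M354 replicate 1 and that of Gzmc without either M354 array (adjusted p up to 0.2, 0.227 and 0.15).

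Of the 11 tested cytotoxic granule genes Gzma and Gzmc were the 2 that rose, with a list median of 0.09, beside 0.359% of all tested genes. Of 4 tested CD8+ T cell and NK cell markers Klrd1 rose, while Cd8a read 348 and 428 against 449 and 371 (log2 -0.08, adjusted p = 0.944) and Cd8b1 1035 and 1046 against 768 and 921 (log2 0.31, adjusted p = 0.409). The summed intensity of the CD8+ T cell and NK cell markers was higher on the M354 arrays, as given above, and the NK cell markers Ncr1 and Klrb1c were below the filter. The part of such cells in the rises was not tested.

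Only Lypd6b and St3gal6 among the 32 rises were called in each of the 4 fits that left out an array. Lypd6b, which encodes a surface protein of the Ly6 family, read 126 and 139.6 with M354 and 70.6 and 73.6 with WT Foxp3, 1.84-fold higher (log2 0.88, SE 0.12, adjusted p = 0.000858). St3gal6, a sialyltransferase, read 352 and 386 against 212 and 193 (log2 0.86, SE 0.14, adjusted p = 0.00373). Lypd6b lay above the array median only on the M354 arrays and entered the test through them, with WT, M176 and Treg readings below the median. Neither gene's groups overlapped, and both M176 arrays lay between the M354 and WT arrays, at 75.8 and 77.9 for Lypd6b and 236 and 262 for St3gal6. Ly6a2, of the same family as Lypd6b, read 208 and 224 against 129.6 and 102 (log2 0.90, SE 0.16, adjusted p = 0.00727) and lost its call without M354 replicate 2 or WT replicate 2 (adjusted p up to 0.0848).

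Further rises were in classes whose level also differed between arrays of the same group. They stand beside 0.359% of all tested genes that rose. Of 54 tested cytosolic ribosomal protein genes 3 rose (median 0.34), of 25 histone genes 1 rose (0.30), and the 36 small nucleolar RNAs had a median of 0.30. Rps29, a ribosomal protein, read 2746 and 1765 with M354 and 1127 and 1178 with WT (log2 0.93, SE 0.22, adjusted p = 0.041), and the linker histone H1f1 1757 and 1111 against 794 and 834 (log2 0.78, SE 0.17, adjusted p = 0.0261). In both genes M354 replicate 1 stood well above M354 replicate 2, and both calls were lost without M354 replicate 1, WT replicate 1 or WT replicate 2 (adjusted p up to 0.518 and 0.478). That of H1f1 was also lost after cyclic loess normalization and that of Rps29 after quantile or cyclic loess normalization. With the small nucleolar RNA level as a covariate the call of Rps29 was lost and that of H1f1 was kept. Wdr12, a factor of ribosome assembly (log2 0.97, adjusted p = 0.0185), and Hspe1, the mitochondrial chaperonin HSP10 (log2 0.82, adjusted p = 0.0207), also rose, and lost their calls without M354 replicate 1 or WT replicate 2, Wdr12 also without M354 replicate 2 (up to 0.165 and 0.282).

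The direct test of M354- against M176-transduced cells compared means that include no WT array, with the spread estimated from all 12 arrays. It called 7 of 8918 genes (0.0785%), 5 higher (0.0561%) and 2 lower (0.0224%) with M354. Ctsg, which encodes cathepsin G, read 64.7 and 53.8 with M354 and 155 and 167 with M176 Foxp3 (log2 -1.45, SE 0.16, adjusted p = 0.000585). With WT Foxp3 it read 64.6 and 59.0, so the M176 arrays stood apart from both others. Ctsg lay above the array median only on the M176 arrays and entered the test through them, so its difference is from dim readings. Gpr83 was lower with M354 than with M176 (log2 -0.84, adjusted p = 0.0461), a call lost without M354 replicate 1 or either M176 array (up to 0.612).

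The 5 genes higher with M354 than with M176 were Gzmc (log2 0.99, adjusted p = 0.024), the kinesin Kif4 (0.99, 0.0197), the kinetochore gene Zwilch (0.87, 0.0256), the midbody gene Shcbp1 (0.81, 0.0197) and Lypd6b (0.79, 0.0197). Kif4 read 296 and 301 with M354, 156 and 144 with M176 and 209 and 173 with WT Foxp3, and its difference from WT was not called (log2 0.65, adjusted p = 0.0523). None of the 5 was called after quantile normalization. The number of genes called higher was 2 without M354 replicate 2 and 0 without M354 replicate 1 or either M176 array. Against M176, 1 of the 87 genes that fell against WT and 2 of the 32 that rose were called, with median differences of -0.16 and 0.58. Both comparisons use the same M354 arrays and share any deviation of them.

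Tregs of Foxp3(M354/M354) mice carried the M354 form in their own gene, and their comparison with Foxp3(WT/WT) Tregs has no array in common with that of transduced cells. There 161 genes were called in M354 against WT Tregs (1.81%), 79 higher and 82 lower. Across the 8918 tested genes the changes in transduced cells and in Tregs had a Pearson r of 0.18 and a Spearman rho of 0.17, as a description across genes, which are not independent replicates. Of the 119 genes called in transduced cells 15 were also called in Tregs, which is 12.6% of the former and 9.32% of the latter. Of these 15 genes, 12 changed in the same direction and 3 in opposite directions. Of the 119, 65.5% had the same sign in Tregs, beside 53.2% of all genes.

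Gpr83, Slc2a3 and Atp6v0d2 fell in both systems. Gpr83 read 1042 and 1097 in M354 Tregs and 2588 and 2224 in WT Tregs (log2 -1.17, adjusted p = 0.000247). Slc2a3 read 481 and 503 against 1141 and 1195 (log2 -1.25, adjusted p = 3.16e-05), and neither gene's groups overlapped. Atp6v0d2 read 22.7 and 20.5 against 52.8 and 55.7 (log2 -1.33, adjusted p = 7.29e-05), below the array median on every Treg array, so that neither this change nor its difference between systems is well measured. The test of the difference between systems gave -0.06 for Gpr83, 0.04 for Slc2a3 and 0.17 for Atp6v0d2, none of them called (adjusted p = 0.966, 0.971 and 0.871). Jun, Fos, the fatty acid elongase Elovl6, the guanylate-binding protein Gbp2b, the phosphatase Ptprj, Chil5 and Zscan29 fell in both systems, and Stmn1 and Cks2 rose in both. With only the 6 transduced arrays in the fit, the calls of Elovl6, Gbp2b, Ptprj, Chil5, Zscan29 and Cks2 in transduced cells were lost. Chil5 read 43.0 and 53.6 in M354 and 84.4 and 84.3 in WT Tregs, below the array median, so its change there is from dim readings. Elovl6, Gbp2b, Ptprj and Zscan29 were named after their values were seen. Of the 29 proliferation genes 5 rose in M354 Tregs, with a median of 0.47, where 0.886% of all genes rose.

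Most HIF targets were not called in Tregs. In M354 against WT Tregs, 2 of the 31 tested HIF targets rose and 2 fell, where 0.886% and 0.919% of all genes did, and the median was -0.08. The difference between systems, transduced cells minus Tregs, was called for 96 of 8918 genes (1.08%), 22 higher and 74 lower (0.83%), and 14 of the 31 HIF targets were among those lower. The 96 genes became 58 without replicate 1 of the M354 Tregs or replicate 2 of the WT Tregs and 57 without replicate 1 of the M354-transduced cells. Ak4 read 53.3 and 59.96 in M354 Tregs and 45.8 and 51.0 in WT Tregs, below the median intensity of the arrays, and its difference between systems was -2.50 (SE 0.18, adjusted p = 1.26e-06). For Ndrg1 the difference was -1.80 (adjusted p = 5.72e-05), and for Egln3 -2.04 (0.000324). Mean log2 intensity over the HIF targets was 7.67 and 7.74 in M354 Tregs and 7.75 and 7.74 in WT Tregs.

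Bhlhe40, Plod2 and Prelid2 changed in opposite directions in the 2 systems. Bhlhe40 read 405 and 540.0 in M354 Tregs and 229.5 and 221 in WT Tregs, a rise (log2 1.06, adjusted p = 0.0004) where transduced cells showed a fall. The difference between systems was -1.83 (adjusted p = 0.000131). Plod2 rose by 0.84 and Prelid2 by 0.87 in Tregs, with differences of -1.92 and -2.02 (adjusted p = 0.000131 and 0.000325). Plod2 read 46.6 and 55.4 in M354 Tregs and 30.8 and 26.2 in WT Tregs, below the median of each array. The transduced cells and the Tregs differ in cell type, sort, culture, host genotype and source of Foxp3, which cannot be told apart here.

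**Figure D5:**
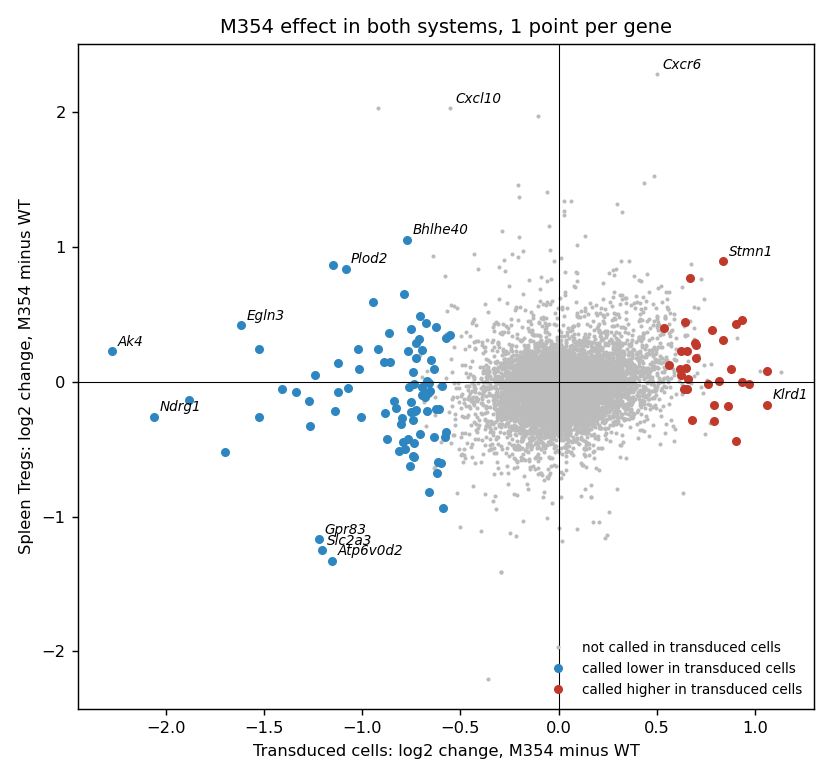
Log2 change of each of 8918 genes in M354 against WT, in transduced cells (x axis) and in spleen Tregs (y axis). Genes called in transduced cells are in blue (lower) or red (higher): Gpr83, Slc2a3 and Atp6v0d2 lie low on both axes, Ak4 and Ndrg1 lie far left, at 0.23 and -0.26 on the y axis, and Bhlhe40 and Plod2 lie left and above 0. The Pearson r across genes is 0.18.

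Some of the genes called in M354 Tregs were not called in transduced cells. Cxcl10, a chemokine of the interferon response, rose by 2.03 in Tregs and had mean intensities of 87.3 ± 17.4 with M354 and 127 ± 5.26 with WT Foxp3 (SD, n = 2) in transduced cells, a difference that was not called (log2 -0.55, adjusted p = 0.102). Cd7, a T cell surface protein, fell by 1.13 on the log2 scale in Tregs and read 1581 and 1459 against 1332 and 1231 in transduced cells (log2 0.25, adjusted p = 0.511). The differences between systems were -2.59 and 1.38 (adjusted p = 5.58e-06 and 0.000676). Tigit rose in Tregs (log2 0.56, adjusted p = 0.0447) and was lower without a call in transduced cells, a difference of -1.10 (0.00679).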

How the data were processed

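RNA was amplified, labelled and hybridised to Affymetrix ST1.0 arrays. Per the submitters' processing notes, the authors used Affymetrix Power Tools and RMA, which corrects background, aligns array distributions and summarises probes, and the deposited values are linear intensities per probe set. The probe library's version and the genome build are not given in these sources. The table held 20716 probe sets, of which 17703 named 1 gene, 1246 named several genes and 1767 named no gene. Singly named sets gave 16426 genes, and the brightest was used for the 734 genes with several. Ctla4 and Ikzf2, among other genes, were not analysed here.

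The log2 intensities entered a limma model (version 3.58.1, R 4.3.3) with 1 mean for each of the 6 groups of 2 arrays, all 12 arrays and no block (6 residual degrees of freedom, prior 10.9). The filter kept 8918 genes above the median (percentile 50) of their own array on at least 2 arrays. The p-values were adjusted over all of them. Scripts were tested on simulated data. Replicate numbers were checked as pairs: deviations from the group means of same-numbered arrays correlated at -0.55 between M354 and WT and -0.33 between M354 and M176 transduced cells, so the numbers were not taken to pair arrays.

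Genes were named by a rule: Foxp3, the 15 largest rises and falls, up to 4 members of smallest p per gene list, up to 6 called each way in the other comparisons, and up to 10 shared between comparisons. The comparison, the 30 gene lists (7 assembled after the values were seen) and the rule were chosen with earlier results of these data known. Alternatives changed the normalization, filter, pseudocount, variance prior, probe set choice, arrays in the fit, replicate block and covariates, and left out each array in turn. Promoters came from RefSeq (GRCm38.p6).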

Additional observations from a re-analysis of the deposited data

Results flagged for a closer look

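The effect of the M354 form differed between transduced cells and Tregs for 35 of the named genes. The test was limma's on the difference itself (transduced cells minus Tregs, log2, adjusted p under 0.05). Over all tested genes it called 96 of 8918 (1.08%). Some of the 35 were named because their differences were the largest in this test, so their number partly follows from the naming rule. No cause of these differences was tested, and cell type, sort, culture, host genotype and source of Foxp3 cannot be told apart.

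Of the 31 tested HIF targets, 14 had a called difference, all of them lower in transduced cells, and 17 were not called, among them Slc2a3 (0.04). Among all tested genes 0.83% had a difference called lower. The difference was -2.50 for Ak4, -2.04 for Egln3, -1.92 for Plod2, -1.83 for Bhlhe40, -1.80 for Ndrg1 and -1.77 for Vegfa. It was -1.27 for Mgarp, -1.26 for Ero1a, -1.18 for Bnip3 and -1.13 for Hilpda. The clock genes Ciart and Nfil3 differed by -1.74 and -1.23. For all 12 genes the change in transduced cells was called and negative. Of them, Ak4, Plod2, Mgarp, Hilpda and Ciart lay below the array median on all M354 and WT Treg arrays. The sizes of their differences therefore rest on dim readings in Tregs.

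Further genes that fell in transduced cells were Prelid2 (-2.02), Rgs11 (-1.29), Ppp2r3a (-0.94) and the transcription factor Maf (-1.15). Of the TNF superfamily and its receptors they were Lta (-1.11), Tnfrsf8 (-1.01) and Tnfrsf9 (-0.92). Rgs11 and Ppp2r3a lay below the array median on all M354 and WT Treg arrays, and Prelid2 on both WT Treg arrays. Tigit (-1.10), Tnf (-0.90) and Lag3 (-0.84) were lower in transduced cells without a call there, while their log2 changes in Tregs were 0.56, 0.47 and 0.34.

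Cxcl10 differed by -2.59, having risen in Tregs by 2.03. Srsy differed by -2.08, a size that is not well measured. It read 25.8 and 24.5 with M354 and 28.2 and 26.0 with WT Foxp3 in transduced cells, below the array median, and 149 and 177 in M354 against 30.9 and 55.2 in WT Tregs. The brightest of its 11 probe sets was used, and the call of the difference was lost without replicate 1 or 2 of the M354 Tregs or replicate 1 of the WT Tregs.

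Differences in the other direction were those of Lypd6b (0.78), St3gal6 (1.05), Gpnmb (1.08), Klrd1 (1.23) and Ly6a2 (1.34), which rose in transduced cells. Of these, only St3gal6 lay above the array median on any M354 or WT Treg array. For the others the size of the difference rests on dim readings in Tregs. Cd7 (1.38), Sidt1 (1.22), Ifitm3 (1.25) and Cd72 (1.02) had log2 changes of -1.13, -0.96, -1.04 and -0.85 in Tregs and were not called in transduced cells. Cd72 is a B cell marker, and the 11 B cell markers tested had a median of -0.48 in M354 against WT Tregs, with 1 called lower. The 2 WT Treg arrays differed in such markers: Cd79a read 93.8 and 399, H2-Ab1 90.8 and 513 and Blk 87.0 and 110. Cd72 read 399 and 371 on them. The part of B cells in these changes was not tested. Eomes (0.92) and Mir15b (1.46) were not called in transduced cells either, and Mir15b lay below the array median on all M354 and WT Treg arrays.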

How the results depend on the processing

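The 119 genes called in M354- against WT-transduced cells became 76 (17 higher) with the filter at percentile 75 and 65 (11 higher, 54 lower) with only the 4 arrays compared, and ranged from 42 to 140 when 1 array was left out (2 to 80 higher, 37 to 63 lower). Of 51 named genes called, 21 were called under every setting run, 19 of 33 falls and 2 of 18 rises. Against M176, the 7 calls (5 higher, 2 lower) became 1 (0 higher, 1 lower) after quantile normalization, 0 with the filter at percentile 75, 12 (9 higher) with the small nucleolar RNA covariate, and 1 to 4 without 1 array (0 to 2 higher, 1 to 2 lower). With only the 6 transduced arrays, 1 was lower. The 96 differences between systems became 54 (13 higher, 41 lower) with that filter, 57 to 90 without 1 array (8 to 33 higher, 44 to 63 lower), and 10 were higher with only the 8 arrays. The replicate numbers do not pair the arrays. With a replicate block, 99 genes were called against WT (25 higher, 74 lower), 7 against M176 (1 lower) and 78 between systems (17 higher, 61 lower). With the numbers of the M354 arrays crossed, an alternative added after seeing the data like the covariate, 140 were called against WT and 10 against M176 (8 higher). The covariate gave 118 calls against WT, among them 26 of the 32 rises and 75 of the 87 falls. Signs reversed for 8 named genes, none of them called against WT. They did so for Cd3g after quantile normalization (-0.0093), for Cd8a and Foxo1 with the covariate (0.039 and 0.0072), and without 1 array for Cd8a (-0.23 to 0.071), Ctsg (-0.20 to 0.069), Foxo1 (-0.28 to 0.072), Foxp1 (-0.24 to 0.041), Ifitm3 (-0.0465 to 0.46), Slc4a1 (-0.27 to 0.072) and Zbtb46 (-0.19 to 0.093). Causes were not tested. With 2 arrays a group, and intensities near background for genes such as Ctsg, small changes could not be resolved.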
